A study of Mus musculus with 6 samples.

Results

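The chromatin of the Pax-Six-Eya genes was described in muscle stem cells (MuSCs) with and without TAF4A. The 9 genes were Pax7, Pax3, Six2, Six4, Six5, Eya1, Eya2, Eya3 and Eya4. Their regions were all peaks of the ATAC-seq table annotated to these genes (26 peaks), together with all peaks without a gene that lay between the start and the stop of such a gene (54 peaks). The rule found 80 of 75412 peaks, and all 80 passed the filter of a mean value above 10. ATAC-seq marks accessible DNA by the insertion of sequencing adapters by the Tn5 transposase. The libraries came from MuSCs sorted directly from muscle, 3 from control and 3 from Taf4a sKO animals. Taf4a sKO mice carried the floxed Taf4a allele (exons 11 and 12) on both chromosomes and the tamoxifen-inducible Pax7CreERT driver, which is active in cells that express Pax7. The control libraries were labelled WT. The paper describes its controls as floxed littermates with or without the driver, and it also lists wild-type mice. All mice had a C57BL/6 background. Tamoxifen was injected into the peritoneum of mice of 8 to 20 weeks (0.05 mg per g of weight and injection), and a Pax7-zsGreen reporter was present in some animals. Cells were sorted as negative for SCA1, CD45 and CD31 and positive for Integrin-a7, or by zsGreen. Which of the control libraries carried the driver, and which of the 6 libraries the reporter, was not given in the sources used here.

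Pax3 and Pax7 are paired-box transcription factors that specify the myogenic lineage, and Pax7 maintains MuSCs in adult muscle and switches on Myf5. The homeodomain factors Six2, Six4 and Six5 belong to a family whose muscle members bind MEF3 sites in the promoters of muscle genes, and Eya proteins lack DNA binding of their own and serve as their coactivators and as phosphatases. Together with Dach corepressors they form the Pax-Six-Eya-Dach network, which acts upstream of Myod1 and Myog in the embryo and in regenerating muscle.

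Accessibility at Taf4a fell inside and outside the floxed exons. The peak over exon 12 (chr2:179922849-179923263) had values of 65, 78 and 137 in control and 44, 22 and 25 in Taf4a sKO libraries, without overlap (log2 change -1.58, SE 0.30, adjusted p = 3.4e-04, limma). The peak over exon 7, which is not floxed, had values of 253, 249 and 302 against 140, 145 and 165, also without overlap (log2 change -0.83, SE 0.15, adjusted p = 1.4e-04, limma), so that the deletion cannot be read from the fall over exon 12 alone. The peak over exon 1 had values of 2305, 1998 and 2375 against 2095, 2124 and 2104 (adjusted p = 0.59, limma). Values throughout are read counts per peak that the authors scaled for sequencing depth and rounded, and log2 changes are Taf4a sKO minus control on the scale of log2(value + 1). All values of a library summed to 37722015, 35226223 and 42803315 in control and 44311913, 41661725 and 41948821 in Taf4a sKO MuSCs. From the whole numbers that never occur among the values, the scaling factors were 1.39, 1.00 and 1.23 in control and 1.39, 1.37 and 1.29 in Taf4a sKO libraries, so that a value of 18 stands for 13 to 18 reads.

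The genotypes also differed at the Y chromosome. Its 12 peaks summed to 7513, 7032 and 6933 in control and 3649, 3710 and 4755 in Taf4a sKO libraries, without overlap, and 8 of them were lower. The median log2 change was 0.094 over 1881 peaks of the X chromosome and 0.11 over 73491 peaks of the autosomes, where the 9 genes lie. Male and female mice were used, and the sex of the animals behind each library was not given in the sources used here, so that a difference in sex between the groups and the genotype cannot be told apart.

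A single library stood apart at Pax7, the locus that also holds the Cre driver. Control replicate 1 exceeded the mean of the other control libraries at 28 of 28 Pax7 peaks, by a median of 0.55 on the log2 scale after the median deviation over all peaks was taken off. The excess reached beyond the gene. Its median was 0.62 over the 4 peaks from 100 to 20 kb upstream of the start site and 0.51 over the 17 peaks from 100 to 200 kb downstream, but 0.053 over the 9 peaks from 200 to 300 kb downstream. At the other 8 genes the median deviation of this library lay between -0.21 (Eya1) and 0.19 (Six2). Whether the values at Pax7 carry a difference in openness or in the number or kind of Pax7 alleles cannot be told apart, and the changes of the Pax7 peaks described here are given with and without this library.

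**Figure D1:**
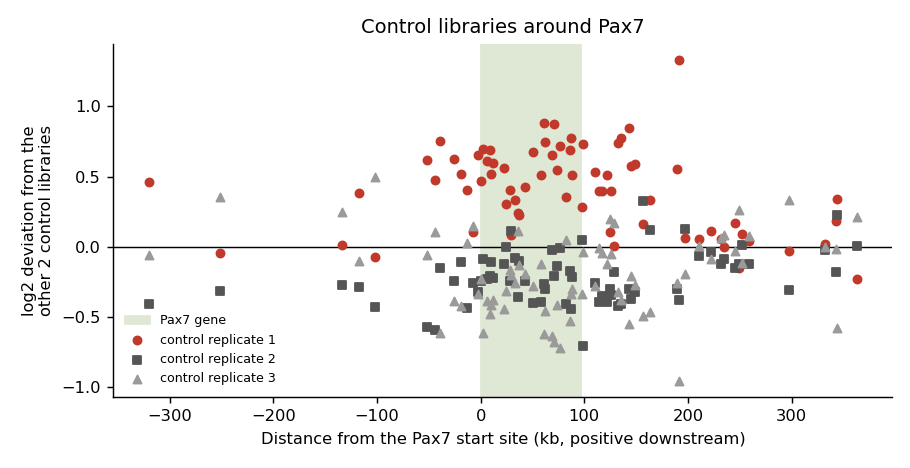
Deviation of each control library from the mean of the other 2 control libraries (y axis, log2) for each peak within 400 kb of the Pax7 start site (x axis, kb, positive downstream), with the Pax7 gene shaded. Control replicate 1 (red circles) lies above 0 at 28 of 28 Pax7 peaks and returns to 0.053 (median) from 200 to 300 kb downstream.

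Across the 9 genes, accessibility moved in both directions. Of the 80 peaks, 24 were higher in Taf4a sKO MuSCs (30.0%, against 28% of all 75384 peaks tested) and 22 were lower (27.5%, against 13.9% of all peaks tested) at an adjusted p below 0.05 (limma, Benjamini-Hochberg adjustment over all peaks tested). The gap in the share of lower peaks was smaller under other scalings. With median-of-ratios factors, 24 of the 80 and 16943 of the 75384 peaks were lower. These numbers were 23 and 18894 with quantile normalization, and 26 and 19464 with equal total signal in peaks. Eya2 alone gave 14 of the 22 lower peaks. Without Eya2, 24 of 66 peaks were higher (36.4%) and 8 were lower (12.1%), so that the share of lower peaks came closer to that of all peaks and the share of higher peaks lay further from it. The genotypes did not overlap at 27 peaks that were higher and at 23 peaks that were lower in Taf4a sKO libraries. Among all peaks tested, 32.3% were apart upwards and 18% downwards.

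The median log2 change of the 80 peaks was 0.14, beside 0.11 over all peaks tested. It was 0.052, beside 0.052, without control replicate 2, and 0.15, beside 0.17, without control replicate 3. When libraries were rescaled by median-of-ratios factors, the median of all peaks moved by -0.11 to -0.0072 and that of the 80 peaks to 0.025, so that small rises depended on the scaling. The share of higher peaks among all called peaks then moved from 66.8% to 53.0%, and among the called Pax-Six-Eya peaks from 52.2% (24 higher, 22 lower) to 45.5% (20 higher, 24 lower). A change of more than 2-fold between the group means made a peak gained or lost. Of the 80 peaks, 1 was gained, at Pax3 (7.03% of all peaks tested), and 10 were lost, 7 of them at Eya2, 2 at Pax7 and 1 at Eya3 (5.36% of all peaks tested). In a bulk library, a smaller share of cells with an open region and less openness per cell cannot be told apart.

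**Figure D2:**
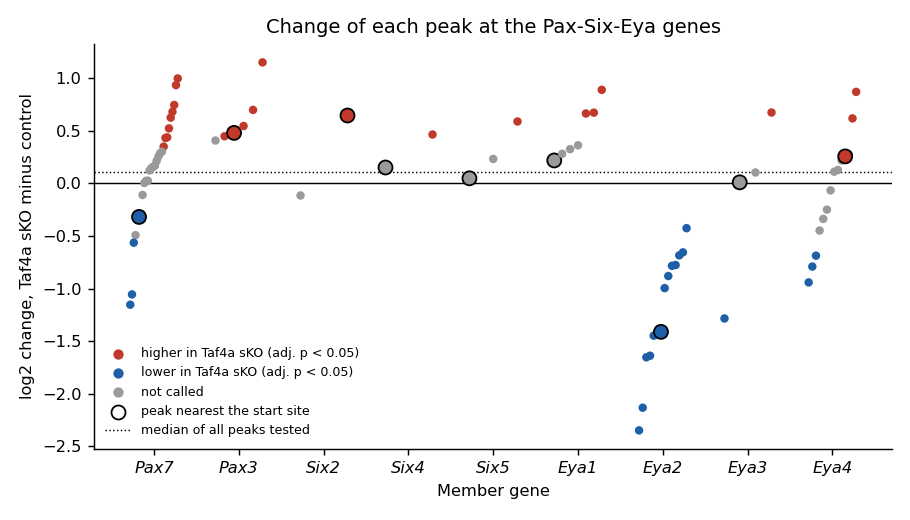
Log2 change, Taf4a sKO minus control, of each of the 80 peaks (points), ordered within each of the 9 genes. Red and blue mark peaks higher and lower at an adjusted p below 0.05, black outlines mark the peak nearest the start site, and the dotted line is the median of all peaks tested (0.11). All 14 Eya2 peaks lie below -0.42 and all 6 Pax3 peaks above 0.40.

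Among the peaks nearest the start sites, Eya2 had the largest fall and Six2 the largest rise. Of these 9 peaks, 3 were higher (Six2, Pax3, Eya4), 2 were lower (Eya2, Pax7) and 4 did not pass the test (Six4, Six5, Eya1, Eya3). The shares of higher and lower peaks, 33.3% and 22.2%, stood beside 28% and 13.9% of all peaks tested. In control libraries, the level per kb of peak was 1964 ± 365 (SD, n = 3) at Pax7, 1570 ± 173 at Six5, 1452 ± 140 at Eya3, 1337 ± 65.8 at Eya1, 1209 ± 102 at Six2, 995 ± 75.3 at Eya4, 767 ± 58.0 at Six4, 717 ± 73.4 at Pax3 and 181 ± 37.5 at Eya2. Neighbours from Pax7 to Six2 in this order, as well as Six4 and Pax3, had overlapping libraries. Eya4 lay apart from Six2 and from Six4, and Eya2 lay apart from Pax3 and so below each other gene. In Taf4a sKO libraries, Six2 held the highest level, 1902 ± 122 per kb, and Eya2 the lowest, 66.1 ± 2.54 per kb.

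**Figure D3:**
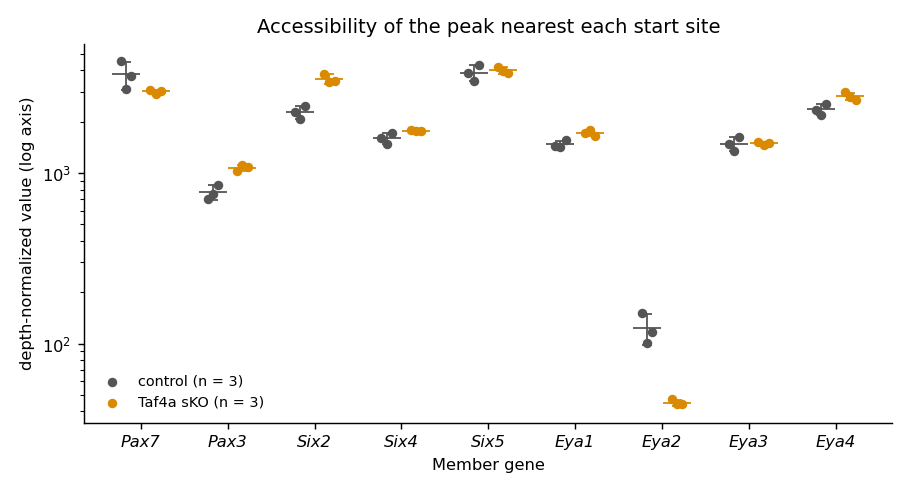
Depth-normalized value (y axis, log scale) of the peak nearest the start site of each gene in each library (points), with the mean and SD (bars, n = 3). Eya2 fell from 123 to 45.0 and Six2 rose from 2267 to 3569, and the libraries of the genotypes overlap at Six5 and Eya3.

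Pax7 (ENSMUSG00000028736, chr4:139737062-139833528, minus strand, mm10) kept an open start site, and single regions of the locus moved in opposite directions. Its 28 peaks comprised 25 intronic peaks, 2 upstream of the gene and the start-site peak, which covers the untranslated and coding part of the first exon. Of these, 9 were higher (32.1%), 4 lower (14.3%) and 15 not called, shares near those of all peaks tested (28% and 13.9%). Without control replicate 1, 13 were higher, including all 9 of the former, and 2 were lower, both among the former 4. Leaving out control replicate 2 or Taf4a sKO replicate 1 gave 6 higher peaks. With median-of-ratios factors or equal total signal in peaks, 6 were higher and 6 lower, and with quantile normalization 5 and 5. The summed value over the 28 peaks was 34932, 22723 and 26316 in control and 29993, 27450 and 29233 in Taf4a sKO libraries, which overlapped (difference 0.068 on the log2 scale, two-sided exact permutation test, p = 0.7, adjusted over the 9 genes 0.79). Without control replicate 1 the libraries did not overlap (difference 0.24, exact permutation test, p = 0.2, which cannot go lower with 2 against 3 libraries).

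The start-site peak of Pax7 (chr4:139832550-139834483) had values of 4533, 3128 and 3729 in control and 3084, 2923 and 3026 in Taf4a sKO libraries. The genotypes did not overlap, but the nearest libraries, at 3128 and 3084, lay close. The log2 change was -0.32 (SE 0.11, adjusted p = 0.030, limma) and, without control replicate 1, -0.18 (SE 0.14, adjusted p = 0.33, limma), so that the size of the fall and its call rested on this library. The call was also lost when control replicate 3 or any single Taf4a sKO library was left out (adjusted p = 0.050 to 0.10), but the log2 change then remained between -0.34 and -0.30. The share of this peak in the sum of the 28 peaks of the same library was 13.0%, 13.8% and 14.2% in control and 10.3%, 10.6% and 10.4% in Taf4a sKO libraries, without overlap (p = 0.1 in a two-sided exact permutation test, which cannot go lower with 3 libraries per genotype, 0.13 adjusted over the 9 genes).

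The largest rises at Pax7 lay 7.8 kb upstream and 22.4 kb downstream of the start site. The upstream peak (chr4:139841018-139841674) had values of 456, 371 and 530 in control and 783, 939 and 977 in Taf4a sKO libraries, a log2 change of 1.00 (SE 0.14, adjusted p = 4.8e-06, limma) and of 1.01 without control replicate 1. The intronic peak (chr4:139810456-139811750) had values of 1220, 855 and 872 against 1853, 1777 and 1935, a log2 change of 0.94 (SE 0.12, adjusted p = 4.6e-06, limma) and of 1.10 without control replicate 1. The genotypes did not overlap at either peak. A further intronic peak 33.4 kb downstream rose by 0.75 (365, 289 and 315 against 533, 558 and 530, SE 0.13, adjusted p = 8.5e-05, limma) and by 0.84 without control replicate 1. Toward the end of the gene, the intronic peaks 88.5 and 82.1 kb downstream rose by 0.68 and 0.52 (adjusted p = 3.1e-04 and 0.0030, limma), and by 0.83 and 0.62 without control replicate 1.

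Apart from the start-site peak, the called falls at Pax7 lay between 50.1 and 70.5 kb downstream, with called rises on either side. The intronic peak 60.7 kb downstream of the start site (chr4:139772437-139773153) had values of 2280, 1288 and 1293 in control and 756, 674 and 676 in Taf4a sKO libraries. The intronic peak 50.1 kb downstream (chr4:139782810-139783953) had values of 2123, 1241 and 1553 against 788, 729 and 792. Both were below every control library, and both were lost by the fold rule, which neither passed without control replicate 1 (1.84-fold and 1.82-fold lower). Their log2 changes were -1.15 (SE 0.20, adjusted p = 7.7e-04, limma) and -1.06 (SE 0.15, adjusted p = 4.8e-05, limma). Without control replicate 1 the falls were smaller, -0.88 and -0.85 (SE 0.14 for both, adjusted p = 2.4e-08 and 5.2e-08, limma). Each fit estimates its own variances, so that the smaller p-values do not mark stronger falls. As shares of the Pax7 sum these peaks fell from 5.70% ± 0.81 to 2.43% ± 0.11 and from 5.81% ± 0.32 to 2.66% ± 0.042 (SD, n = 3). A further intronic peak, 70.5 kb downstream (1084, 631 and 602 against 502, 477 and 532), was called lower with all libraries (log2 change -0.56, SE 0.18, adjusted p = 0.024, limma) but not without control replicate 1, where the fall shrank (log2 change -0.29, adjusted p = 0.13). The call was also lost without Taf4a sKO replicate 1 or 2 (adjusted p = 0.084 and 0.075), with log2 changes of -0.56 and -0.52. The strongest peak of the gene, 62.0 kb downstream and next to a fallen one, had values of 7447, 4415 and 4862 against 6010, 4944 and 5438 (log2 change 0.0052, adjusted p = 0.98, limma, and 0.23, adjusted p = 0.19, without control replicate 1).

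**Figure D4:**
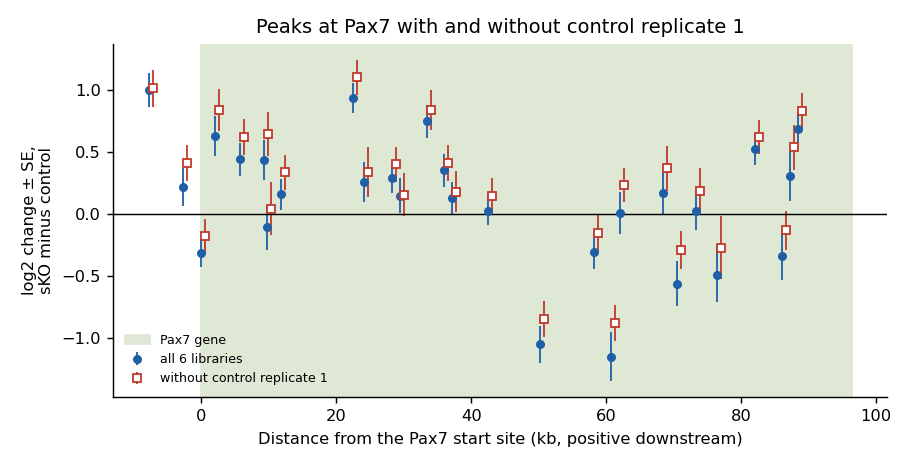
Log2 change ± SE (y axis) of the 28 Pax7 peaks against distance from the start site (x axis, kb, positive downstream), with all 6 libraries (blue circles) and without control replicate 1 (red squares), the gene shaded. The peaks at 50.1 and 60.7 kb stay below -0.8 in both fits and the peaks at -7.8 and 22.4 kb stay above 0.9.

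The windows around the largest rises are shown because these peaks lie outside coding sequence. They are the central 300 bases of the peak, read from the GRCm38 (mm10) genome sequence on the minus strand, the coding strand of Pax7 and Pax3. Capitals mark every match, on either strand, to CCAAT (the NF-Y box), GGGCGG (Sp1), TGANTCA (AP-1), CANNTG (E-box), TCAGGTTTC (MEF3) and TAAT followed by ATTA after 3 bases (paired homeodomain dimer).
Pax7 upstream peak (chr4:139841197-139841496): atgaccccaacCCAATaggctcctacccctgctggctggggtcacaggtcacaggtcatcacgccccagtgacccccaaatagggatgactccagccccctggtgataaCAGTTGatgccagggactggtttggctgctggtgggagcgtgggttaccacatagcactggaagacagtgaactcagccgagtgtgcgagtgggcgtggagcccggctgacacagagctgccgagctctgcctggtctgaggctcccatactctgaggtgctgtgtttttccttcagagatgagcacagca
Pax7 intronic peak (chr4:139810954-139811253): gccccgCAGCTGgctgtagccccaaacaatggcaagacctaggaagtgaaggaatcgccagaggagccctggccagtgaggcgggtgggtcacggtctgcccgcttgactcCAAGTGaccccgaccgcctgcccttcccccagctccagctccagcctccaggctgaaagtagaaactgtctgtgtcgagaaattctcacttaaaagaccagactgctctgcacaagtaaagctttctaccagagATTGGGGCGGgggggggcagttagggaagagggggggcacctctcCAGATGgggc
Pax3 intronic peak (chr1:78148244-78148543): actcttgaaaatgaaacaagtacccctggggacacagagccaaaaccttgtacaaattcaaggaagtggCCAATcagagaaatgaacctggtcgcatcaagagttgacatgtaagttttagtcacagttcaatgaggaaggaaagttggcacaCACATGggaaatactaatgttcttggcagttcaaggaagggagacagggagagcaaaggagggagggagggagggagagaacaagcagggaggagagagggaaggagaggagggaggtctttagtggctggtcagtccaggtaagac
The windows of the 3 rises each hold a CCAAT and at least 1 E-box, and the intronic Pax7 window also holds GGGCGG, which shares a base with its CCAAT complement. Matches are descriptions of letters, and their frequency elsewhere is given with the Eya2 windows.

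Pax3, the paralog of Pax7, became more accessible at 5 of its 6 peaks. All 6 peaks of Pax3 (ENSMUSG00000004872, chr1:78101267-78197134, minus strand) had positive changes, and 5 were called higher (83.3%, against 28% of all peaks tested), also under each of the other scalings. The intronic peak 48.7 kb downstream of the start site (chr1:78148029-78148757) had values of 185, 182 and 207 in control and 433, 418 and 426 in Taf4a sKO libraries, a 2.22-fold rise without overlap (log2 change 1.15, SE 0.14, adjusted p = 7.1e-07, limma). It was the only gained peak of the 9 genes. The start-site peak rose from 700, 757 and 856 to 1028, 1111 and 1081 (log2 change 0.48, SE 0.11, adjusted p = 0.0013, limma). Peaks 15.0 kb and 7.6 kb downstream and 6.7 kb upstream rose by 0.70, 0.45 and 0.55 on the log2 scale (adjusted p = 1.3e-04, 0.0019 and 0.0012, limma). The remaining intronic peak, 40.3 kb downstream, had values of 53, 99 and 68 against 97, 88 and 99 and overlapped (log2 change 0.41, adjusted p = 0.14, limma). The Pax3 sum was 2335, 2430 and 2620 against 3566, 3727 and 3677, again without overlap (0.57 on the log2 scale, exact permutation test, p = 0.1).

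Among the homeodomain genes, Six2 rose at its start site, whereas Six4 and Six5 passed the test at a neighbouring peak and not at the start site. Six2, known for its role in nephron progenitors, lies at chr17:85684277-85688274 (minus strand, ENSMUSG00000024134). Its start-site peak (chr17:85687610-85689486) had values of 2267, 2076 and 2459 in control and 3830, 3401 and 3476 in Taf4a sKO libraries, a log2 change of 0.66 without overlap (SE 0.10, adjusted p = 1.8e-05, limma). The second Six2 peak, 8.4 kb downstream, overlapped (117, 87 and 110 against 90, 96 and 103). Outside the rule, 3 peaks without a gene lay within 50 kb upstream of Six2, and all 3 were higher, beside 28% of all peaks tested. The strongest of them, 42.4 kb upstream (chr17:85730137-85731168), had values of 181, 174 and 227 against 575, 537 and 560 (log2 change 1.53, SE 0.14, adjusted p = 2.4e-08, limma).

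Six4, which acts in muscle development, lies at chr12:73099609-73113456 (minus strand, ENSMUSG00000034460). Its start-site peak had values of 1606, 1472 and 1713 against 1796, 1772 and 1761, which did not overlap but did not pass the test (log2 change 0.16, adjusted p = 0.23, limma). It passed without control replicate 3 (adjusted p = 0.031). The intronic peak 2.8 kb downstream rose from 659, 655 and 751 to 1132, 847 and 894 (log2 change 0.47, SE 0.12, adjusted p = 0.0037, limma), a call lost without Taf4a sKO replicate 1 (adjusted p = 0.053). Six5 (chr7:19094594-19098549, plus strand, ENSMUSG00000040841), the neighbour of the myotonic dystrophy kinase gene Dmpk, had start-site values of 3865, 3469 and 4325 against 4212, 3952 and 3858 (log2 change 0.049, adjusted p = 0.73, limma), a value whose sign turned with other scalings (-0.056 to -0.099) and was called lower with equal total signal in peaks (adjusted p = 0.018, limma). A peak 9.4 kb downstream of the Six5 start rose from 96, 80 and 116 to 137, 138 and 163 (log2 change 0.59, SE 0.18, adjusted p = 0.011, limma), a call lost without control replicate 2 or Taf4a sKO replicate 3 (adjusted p = 0.082 and 0.067). The sums over the 3 Six5 peaks overlapped (4243, 3878 and 4758 against 4713, 4449 and 4387).

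Eya1, a partner of Six4, showed positive changes at all 7 peaks, of which 3 were called higher (42.9%, against 28% of all peaks tested). Among all peaks tested, 46085 of 75384 had a positive change. Eya1 lies at chr1:14168954-14310235 (minus strand, ENSMUSG00000025932). The peak 5.4 kb downstream of its start site (chr1:14304279-14305357) rose from 609, 666 and 812 to 1178, 1084 and 1049 without overlap (log2 change 0.67, SE 0.12, adjusted p = 8.9e-05, limma). The start-site peak had values of 1445, 1424 and 1559 against 1726, 1783 and 1644, which did not overlap but did not pass the test (log2 change 0.22, adjusted p = 0.086, limma). It passed without control replicate 3 (adjusted p = 0.0087). The intronic peaks 78.0 kb and 65.3 kb downstream were low. They had values of 33, 34 and 62 against 58, 90 and 88, which overlapped, and of 54, 103 and 83 against 136, 111 and 124, which did not. Their calls (log2 change 0.89 and 0.67, adjusted p = 0.0091 and 0.015, limma) were lost without control replicate 2 for the former (adjusted p = 0.077) and, for the latter, with median-of-ratios factors (adjusted p = 0.053), equal total signal (0.069), without control replicate 1 (0.13) or without Taf4a sKO replicate 1 (0.054). The other 3 peaks did not pass (log2 changes 0.28 to 0.36).

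Eya2 lost accessibility along its whole length. All 14 peaks of Eya2 (ENSMUSG00000017897, chr2:165595032-165771727, plus strand), a coactivator gene of the Pax-Six-Eya network, were lower in Taf4a sKO libraries, without overlap between genotypes at any of them, with log2 changes from -0.43 to -2.35 and a median of -1.20. Of all peaks tested, 13.9% were lower and 18% were apart downwards. The start-site peak (chr2:165594936-165595617, first untranslated exon) had values of 151, 101 and 117 in control and 47, 44 and 44 in Taf4a sKO libraries, 2.66-fold lower (log2 change -1.41, SE 0.21, adjusted p = 1.0e-05, limma). The other 13 peaks were intronic. The peak 4.7 kb downstream (chr2:165599574-165599907) had values of 99, 105 and 89 against 18, 18 and 19, 5.09-fold lower (log2 change -2.35, SE 0.24, adjusted p = 1.3e-07, limma). It was the largest fall among the 80 peaks, and the values left in Taf4a sKO libraries stand for few reads.

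Strong and weak peaks of Eya2 fell alike in direction. The peak 156.1 kb downstream (chr2:165750912-165751434) had values of 486, 478 and 569 against 169, 148 and 173 (log2 change -1.64, SE 0.14, adjusted p = 1.0e-08, limma). The strongest peak, 164.3 kb downstream (chr2:165758570-165760101), had values of 1709, 1429 and 1415 against 1284, 1047 and 1061, the smallest fall of the gene (log2 change -0.43, SE 0.11, adjusted p = 0.0042, limma). Peaks 124.5, 8.8, 101.7 and 6.1 kb downstream fell by 2.13, 1.65, 1.45 and 1.42 on the log2 scale. Together with the start-site peak and those at 4.7 and 156.1 kb, they were the 7 lost peaks of the gene. The weakest peak, 35.0 kb downstream (31, 26 and 26 against 15, 7 and 22), was the least certain (adjusted p = 0.044, limma). With other scalings, 13 or 14 of the 14 peaks were called lower, and 13 or 14 when single libraries were left out.

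The Eya2 sum was 5183, 4552 and 5329 in control and 3291, 2560 and 2841 in Taf4a sKO libraries, without overlap (-0.80 on the log2 scale, exact permutation test, p = 0.1). The start-site peak made up 2.91%, 2.22% and 2.20% of this sum in control and 1.43%, 1.72% and 1.55% in Taf4a sKO libraries. Within the 4 annotated peaks near the start its share moved the other way (0.29 on the log2 scale), since the neighbouring peaks fell further. Outside the rule, the 3 peaks without a gene within 50 kb upstream were lower as well, by 1.55, 1.71 and 1.82 on the log2 scale. The strongest of them, 31.4 kb upstream (chr2:165563167-165564023), had values of 367, 364 and 366 against 124, 111 and 138. Of the 4 peaks within 50 kb downstream of the gene, the nearest 2 were lower (-0.58 and -0.55) and the others did not pass. Further upstream, peaks 65.7 and 91.1 kb away were called lower (-0.62 and -0.41), and the peak between them, at 82.0 kb, was not. In windows chosen after the values were seen, 5 of 6 peaks within 100 kb upstream were lower, the 3 above among them. Within 100 kb downstream, 2 of 7 peaks were lower and 2 higher. From 100 to 1000 kb, 9 of 51 upstream and 15 of 86 downstream peaks were lower (17.6% and 17.4%, beside 16.1% on all of chromosome 2).

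**Figure D5:**
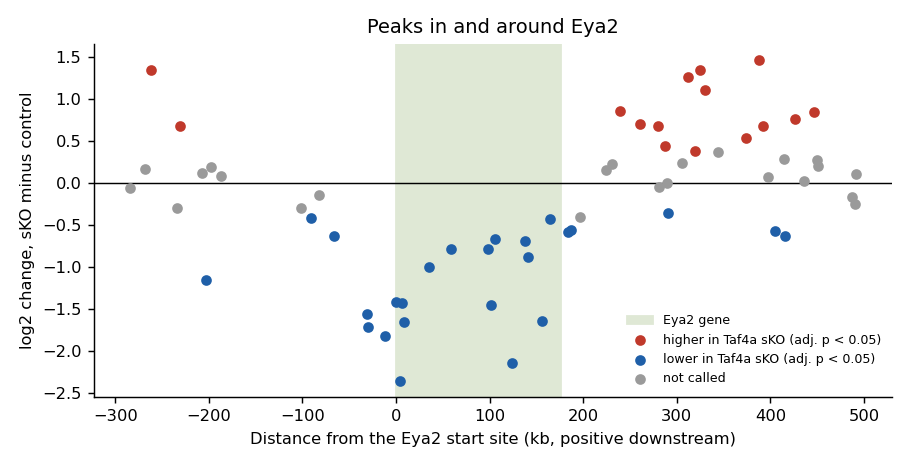
Log2 change, Taf4a sKO minus control (y axis), of all tested peaks from 300 kb upstream to 500 kb downstream of the Eya2 start site (x axis, kb), with the gene shaded and colours for peaks called higher (red), lower (blue) or not called (grey). All 14 peaks in the gene are blue, as are the 3 peaks within 50 kb upstream.

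The windows of the 3 largest falls of Eya2 are given on the plus strand, its coding strand, with capitals as above. The middle window is the whole of a narrow peak.
Eya2 4.7 kb peak (chr2:165599591-165599890): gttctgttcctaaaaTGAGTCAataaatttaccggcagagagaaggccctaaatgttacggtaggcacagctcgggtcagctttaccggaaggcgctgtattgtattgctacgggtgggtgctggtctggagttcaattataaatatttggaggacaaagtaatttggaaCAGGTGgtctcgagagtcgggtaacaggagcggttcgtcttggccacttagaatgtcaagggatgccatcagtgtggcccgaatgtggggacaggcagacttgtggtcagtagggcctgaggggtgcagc
Eya2 124.5 kb peak (chr2:165719442-165719652): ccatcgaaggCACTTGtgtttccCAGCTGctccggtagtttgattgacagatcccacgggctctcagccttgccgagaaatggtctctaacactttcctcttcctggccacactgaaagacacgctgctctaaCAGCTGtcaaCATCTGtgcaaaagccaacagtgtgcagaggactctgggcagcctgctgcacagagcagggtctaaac
Eya2 8.8 kb peak (chr2:165603727-165604026): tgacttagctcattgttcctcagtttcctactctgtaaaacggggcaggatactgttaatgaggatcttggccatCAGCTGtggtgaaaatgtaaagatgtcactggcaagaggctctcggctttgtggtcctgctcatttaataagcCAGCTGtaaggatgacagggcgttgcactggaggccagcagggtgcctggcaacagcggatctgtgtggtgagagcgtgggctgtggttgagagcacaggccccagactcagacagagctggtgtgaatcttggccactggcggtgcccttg
Each window holds E-boxes (1, 4 and 2 matches), the first also AP-1, and none holds CCAAT or GGGCGG. Of the 63 Pax-Six-Eya peaks of at least 300 bases, the central 300 bases held CCAAT in 22 (34.9%, against 31.7% of all 60607 such peaks), GGGCGG in 13 (20.6%, against 22.8%), AP-1 in 16 (25.4%, against 20.3%) and an E-box in 53 (84.1%, against 79.1%). MEF3 was matched in 4 (2 at Pax7, 1 at Eya2 and 1 at Eya4, 6.35% against 0.498%) and the paired homeodomain dimer in none (against 0.478%). The printed windows come from called peaks. Among all such peaks called lower, CCAAT was matched in 32.3%, GGGCGG in 12.5%, AP-1 in 18.2% and an E-box in 88.2%. Among those called higher, the shares were 32.5%, 12.9%, 30.3% and 82.1%.

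Eya3 and Eya4 showed small differences at their start sites, and single distal regions moved either way. Eya3 (ENSMUSG00000028886, chr4:132638987-132724765, plus strand) is broadly expressed. Its start-site peak had values of 1482, 1350 and 1637 against 1517, 1466 and 1506 (log2 change 0.011, adjusted p = 0.95, limma). The sign of this value turned with other scalings (-0.10 to -0.14), and the peak was called lower with quantile normalization (adjusted p = 0.024, limma) and with equal total signal in peaks (adjusted p = 0.033, limma). The intronic peak 20.2 kb downstream (chr4:132658957-132659391) fell from 96, 101 and 112 to 43, 42 and 40 (log2 change -1.28, SE 0.21, adjusted p = 2.9e-05, limma), and the intronic peak 14.1 kb downstream rose from 121, 139 and 164 to 261, 195 and 226 (log2 change 0.68, SE 0.17, adjusted p = 0.0019, limma). Neither overlapped, and the Eya3 sum did (1910, 1789 and 2153 against 2115, 1907 and 1981).

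Eya4 (ENSMUSG00000010461, chr10:23102963-23350786, minus strand), a gene linked to hearing and heart muscle, had 14 peaks, with 3 higher and 3 lower (21.4% each, against 28% and 13.9% of all peaks tested) and 8 not called. The start-site peak (chr10:23348540-23350915) had values of 2337, 2197 and 2552 against 2974, 2786 and 2702, without overlap (log2 change 0.26, SE 0.10, adjusted p = 0.042, limma). The call was lost when any library other than control replicate 3 was left out (adjusted p = 0.079 to 0.18) and with the replicate number as a block (0.063). The intronic peak 147.1 kb downstream (chr10:23202965-23204463) rose from 586, 631 and 984 to 1370, 1287 and 1266 (log2 change 0.87, SE 0.16, adjusted p = 3.9e-04, limma), and that 65.6 kb downstream from 147, 197 and 214 to 268, 271 and 311 (log2 change 0.62, adjusted p = 0.0031, limma). All 3 falls were at weak intronic peaks. The clearest, 155.2 kb downstream, went from 78, 81 and 60 to 35, 32 and 46 (log2 change -0.94, SE 0.24, adjusted p = 0.0028, limma). Those 139.2 and 112.6 kb downstream (log2 changes -0.79 and -0.69, adjusted p = 0.021 and 0.019, limma) each lost the call on leaving out single libraries, including control replicate 2 (adjusted p = 0.079 and 0.071).

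The partners of these genes were followed at the peak nearest each start site. Of all peaks tested, 28% were higher and 13.9% were lower. Of 12 further Pax-Six-Dach genes, 9 had an annotated peak, and 1 was lower and none was higher (median log2 change 0.032, beside 0.11 over all peaks). The lower gene was Dach2, a corepressor gene on the X chromosome (94, 69 and 67 against 39, 36 and 41, log2 change -0.95, SE 0.23, adjusted p = 0.0018, limma). Of 9 cofactors of Pax3 and Pax7 (such as Carm1, the methyltransferase of Pax7, and the Wdr5-Ash2l-Kmt2d complex), none was called, with log2 changes from -0.12 to 0.078.

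Among 11 targets of Pax3 or Pax7, 3 were higher, 1 was lower and 7 were not called (median 0.063), shares near those of all peaks tested (28% higher and 13.9% lower). The growth factor receptors Fgfr4 and Met and the myogenic determination gene Myod1 rose by 0.32, 0.26 and 0.29 on the log2 scale (adjusted p = 0.017, 0.044 and 0.028, limma). Id3, an inhibitor of bHLH factors, fell from 4583, 3761 and 4953 to 3417, 3235 and 3017 (log2 change -0.45, SE 0.11, adjusted p = 0.0016, limma). Myf5 had values of 2202, 1975 and 2671 against 2011, 1944 and 1862 (adjusted p = 0.11, limma). Of 10 targets of the Pax-Six-Eya network, 8 had a peak, and 2 were lower and none was higher (median -0.11), again beside 13.9% and 28% of all peaks tested. They were Myog, the differentiation factor (282, 297 and 224 against 160, 143 and 137, log2 change -0.86, SE 0.16, adjusted p = 1.3e-04, limma), and Atp2a1, the calcium pump of fast fibres (221, 260 and 248 against 168, 132 and 169, log2 change -0.64, SE 0.16, adjusted p = 0.0021, limma).

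The libraries carried open chromatin at MuSC markers. All 8 MuSC markers had a start-site peak, among them Itga7, Cdh15 and Calcr, and their summed value was 14178, 11736 and 14348 in control and 13419, 12622 and 12680 in Taf4a sKO libraries. Of the 8, Vcam1 was higher and Pax7 lower, the latter a call that was lost without control replicate 1. Markers of other cells were accessible as well, and some moved. Not all of these peaks lay at a start site. Among those called, the distance was 8036 bases at Csf1r, 3196 at Acta1 and 2177 at Pdgfra, but 29 to 462 at Dcn, Tek, Cd68 and Lum. The fibro-adipogenic list (4 of 5 with a peak, Pdgfrb the most accessible, none at Ly6a) summed to 947, 907 and 1116 against 1144, 1080 and 1085, with Lum and Dcn higher and Pdgfra lower. The haematopoietic list (3 of 5 with a peak, Spi1 the most accessible, none at Ptprc and Itgam) summed to 793, 924 and 1030 against 1119, 1013 and 1208, with Csf1r higher and Cd68 lower. The endothelial list (4 of 5, Tek the most accessible and higher, none at Tie1) summed to 1514, 1312 and 1845 against 1993, 1992 and 1888. The myofibre list (5 of 5, Myh1 the most accessible, Acta1 lower) summed to 1891, 1756 and 2141 against 1969, 1855 and 1863. The part of other cells in the changes at the Pax-Six-Eya genes was not tested.

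The genes whose start-site peak was most like that of Pax7 over the 6 libraries, by Pearson's r of the log2 values among 14080 genes, were Stk16 (r = 0.984), Pgf (r = 0.981) and Cacna1g (r = 0.979). All 3 shared the high value of control replicate 1 (1002, 870 and 932 against 887, 859 and 884 at Stk16). With 6 libraries that differ in depth and genotype, this is a description only.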

How the data were processed

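The deposited table holds whole-number scores. The authors trimmed reads with Trimmomatic 0.39, aligned them with STAR 2.7.11b to mm10, removed duplicates with Picard 3.1.1 as well as spliced, multi-mapping, ribosomal and mitochondrial reads, used MACS on every library, with no input control, to call peaks, counted reads in the unified peaks, scaled these deposited scores for sequencing depth and rounded them. A shift for the Tn5 insertion was not described. All 6 sample columns were used.

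The members and gene lists were chosen with earlier results of these data known. The scores are scaled, so a test for normalized values was chosen: limma 3.58.1 (R 4.3.3, trend and robust options) fitted to log2(value + 1), and p-values were adjusted by Benjamini-Hochberg over the 75384 peaks with a mean above 10. The test was tested on simulated data, and the outcome is not given here. Sums and shares per gene were compared by two-sided exact permutation tests (SciPy 1.17.1), which cannot go below 0.1 with 3 libraries per genotype. Gained or lost peaks had a log2 ratio of group means beyond 1 or -1. Text names each start-site peak, the called peaks (at most 3 rises and 3 falls where a gene had more than 5) and gained or lost peaks. Other peaks of Eya2 and Pax7 and the strongest neighbours were chosen after their values were seen. Annotation was GENCODE vM21. Positions are those of the table, whose counting from 0 or 1 was not stated. Some listed genes and a sequence window are not reported here. Alternatives covered scaling, pseudocount, filter, replicate block and leaving out each library. Nothing says whether the 3 samples per genotype were pooled from several mice. They limit the precision.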

Additional observations from a re-analysis of the deposited data

How the results depend on the processing

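Of the counts over the 80 peaks, higher peaks numbered 18 to 28 and lower peaks 18 to 26 under all alternatives. The median change of the 80 peaks (0.14) was 0.025 with median-of-ratios factors, -0.024 with quantile normalization and -0.011 with equal total signal in peaks, while the median of all peaks became -0.0072, -0.024 and -0.042. Quantile normalization left 5 higher Pax7 peaks. A 1.5-fold threshold gave 14 gained and 20 lost peaks. Leaving out single libraries gave 2 to 5 lower Pax7 peaks (2 without control replicate 1 and without Taf4a sKO replicate 1 or 2), 2 to 5 higher Eya1 and 2 to 5 higher Eya4 peaks (5 in both without control replicate 3), 1 to 3 lower Eya4 peaks (1 without control replicate 2) and 1 to 4 gained peaks (2, 4 and 3 without control replicate 1, control replicate 3 and Taf4a sKO replicate 1). With median-of-ratios factors, the summed values turned to -0.045 (Pax7), -0.035 (Six5) and -0.073 (Eya3). With single libraries left out, they ranged from -0.071 to 0.24 (Pax7, turned without control replicate 2) and from -0.021 to 0.11 (Eya3, turned without control replicate 2 and Taf4a sKO replicate 1). The start-site share of Eya2 turned to 0.29 with annotated peaks only, and that of Eya3 ranged from -0.048 to 0.0017 (turned without Taf4a sKO replicate 1). The start-site peaks of Eya3 and Six5 turned to -0.10 and -0.064 with median-of-ratios factors, -0.14 and -0.056 with quantile normalization and -0.14 and -0.099 with equal total signal, and ranged from -0.058 to 0.081 and from -0.030 to 0.13 with single libraries left out (turned without control replicate 2). The cause was not tested in any of these. Of 478 repeats over 37 named peaks, 440 kept direction and call, 28 lost the call, 2 gained it and 8 turned, 3 of these into called falls (Eya3 with quantile normalization and equal total signal, Six5 with equal total signal). The pairing check gave correlations of 0.11, -0.12 and -0.029 for same-numbered libraries, and of -0.12 to 0.15 for the other pairs. With 3 libraries per genotype, such values cannot show whether the numbers pair libraries by litter or batch. With the replicate number as a block, 24 peaks were higher and 24 lower, 10 and 6 of them at Pax7, 0 and 14 at Eya2.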

Other observations

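Regions around the genes that the rule leaves out were counted as well. Within 50 kb downstream of Pax7, 13 peaks without a gene held 5 higher and 3 lower ones (28% and 13.9% of all peaks tested were higher and lower), and 5 peaks within 50 kb upstream held 1 higher and none lower. Without control replicate 1, an alternative chosen after seeing the data, the downstream peaks held 6 higher and 1 lower and the upstream peaks 1 higher and none lower. Inside Eya1, 2 peaks annotated to another gene were both higher, and the stronger of them, 119.6 kb downstream of the start site, had values of 42, 46 and 65 in control and 107, 118 and 123 in Taf4a sKO libraries (log2 change 1.19, SE 0.21, adjusted p = 8.1e-05, limma). Inside Eya4, 3 such peaks held 1 higher and 1 lower. No peak without a gene lay within 50 kb of Pax3 or Eya3.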
